A study of Mus musculus with 30 samples.

Results

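The genes described here encode the subunits of the proteasome, with 3 chaperones of its assembly, in KH2 mouse embryonic stem cells during a course of retinoic acid. They were chosen by symbol alone, as every gene whose symbol starts with Psma, Psmb, Psmc or Psmd followed by a digit, without the interferon-inducible Psmb8, Psmb9 and Psmb10. Each gene is read by 1 probe set, whichever of its probe sets was brightest on average across the 30 arrays. This gave 37 of 18193 genes, drawn from 76 of 34945 probe sets that carry a single gene symbol. By role, 7 encode the alpha ring and 7 the beta ring of the core particle, 6 the ATPases of the regulatory cap and 11 its other subunits. Another 3 (Psmd5, Psmd9 and Psmd10) encode chaperones that assemble the cap, and these 34 are called the constitutive set below. The remaining 3 differ in kind: Psma8 is a core subunit best known from testis, Psmb11 a core subunit best known from thymus, and Psmc3ip a recombination protein that carries the name without being a subunit.

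The proteasome degrades proteins that have been marked with ubiquitin. Its core is a barrel of stacked alpha and beta rings with the cutting sites inside, and its cap binds ubiquitin, removes it, and uses ATPases to unfold the protein and feed it into the barrel. Its subunits are made by nearly all cells and their genes are known to be transcribed together, among others by the factor encoded by Nfe2l1, which binds antioxidant response elements. Embryonic stem cells are known for high proteasome activity.

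KH2 cells, a mouse embryonic stem cell line, were grown on feeder fibroblasts, and RNA was hybridised to Affymetrix arrays with 3 arrays in each of 10 groups. All groups share the line, the feeders and a 30 minute replating on gelatin before lysis, which the labels describe in 2 ways (RNA from the cells that adhered, or from those that did not). Retinoic acid was used at 0.3 uM. By their labels the arrays at 8 h are baseline and those at 12, 16, 24, 36, 48, 60 and 72 h are treated with retinoic acid. Whether the 8 h cells had already received it is not stated. At 12 h and 24 h there are 6 arrays each, lettered A to F. Nothing in the labels says that arrays of a group came from separate cultures, so every p-value reflects the spread among these arrays alone, which may be technical.

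The values are log2 intensities as deposited, with array medians between 6.34 and 6.39. The arrays fall into 2 sets by a pair of spike-in probe sets, whose log2 difference was 0.99 to 1.07 on 12 arrays (8 h, 12 h A to C, 16 h and 24 h A to C) and 1.34 to 1.63 on the other 18 (12 h D to F, 24 h D to F, and 36 h to 72 h). These sets come from the measured values, with no batch named in the labels, so each of the 2 courses was kept within a set. The early course is 24 h A-C against 8 h and the late course 72 h against 12 h D-F. Comparisons that cross the sets (D-F against A-C, and 72 h against 8 h) are given separately below. A gene is called higher or lower where its limma p, adjusted by the Benjamini-Hochberg method across the 18193 genes, is under 0.05. The cell type markers moved over both courses. All 8 stem cell markers had lower means at 24 h A-C than at 8 h and at 72 h than at 12 h D-F, and all 6 neural markers had higher ones. These counts go by sign alone, and the neural marker Tubb3 hardly differed in the early course (9.094 at 8 h, 9.096 at 24 h A-C). The fibroblast markers had higher means for 8 of 10 in the early course and 10 of 10 in the late one, and the part of these cells in the results below was not tested. In bulk RNA, fewer cells of a type and less RNA per cell cannot be told apart.

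More of the proteasome genes fell than rose in both courses, by small amounts. From 12 h D-F to 72 h, 20 of the 37 genes fell (54.1%) and 2 rose (5.41%), while 34.5% of all genes were called lower and 26.2% higher. From 8 h to 24 h A-C, 10 genes fell (27%) and 0 rose, while 15.8% of all genes were called lower and 23.5% higher. The median log2 change of the 37 genes was -0.18 in the late course and -0.07 in the early course, and the median over all genes was -0.09 and -0.02. Relative to that median of all genes, the 37 therefore lay 0.083 and 0.048 lower, and 0.061 and 0.035 lower when the arrays were quantile normalised again. The median of the 34 constitutive genes alone, without Psma8, Psmb11 and Psmc3ip, was -0.13 and -0.06, which is 0.036 and 0.046 below all genes. Centring the arrays on the median of the genes tested, a setting added after seeing the data, moves the median of all genes to -0.27 and -0.20. Under it 57% of all genes were lower and 19.5% higher in the late course, 47.1% lower and 13% higher in the early course, and 35 and 33 of the 37 genes were called lower with 0 higher. That centring shifts all genes of an array alike, so it leaves the distance between the 37 genes and all genes as it was.

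Averaged over the 34 constitutive genes, the mean log2 intensity was 12.26, 12.27 and 12.27 on the lowest, middle and highest 8 h array and 12.14, 12.19 and 12.19 at 24 h A-C. It was 12.30, 12.36 and 12.38 at 12 h D-F and 12.18, 12.20 and 12.21 at 72 h. The groups do not overlap in either course. Yet the movement was narrow for most genes. The range between a gene's highest and lowest group mean had a median of 0.22 over the 34 genes across the late set, where all genes had 0.40. Across the early set the median was 0.15, where all genes had 0.30. Most of the 34 are among the brighter genes on the arrays. Their ranges were not compared with those of other genes of like intensity.

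**Figure D1:**
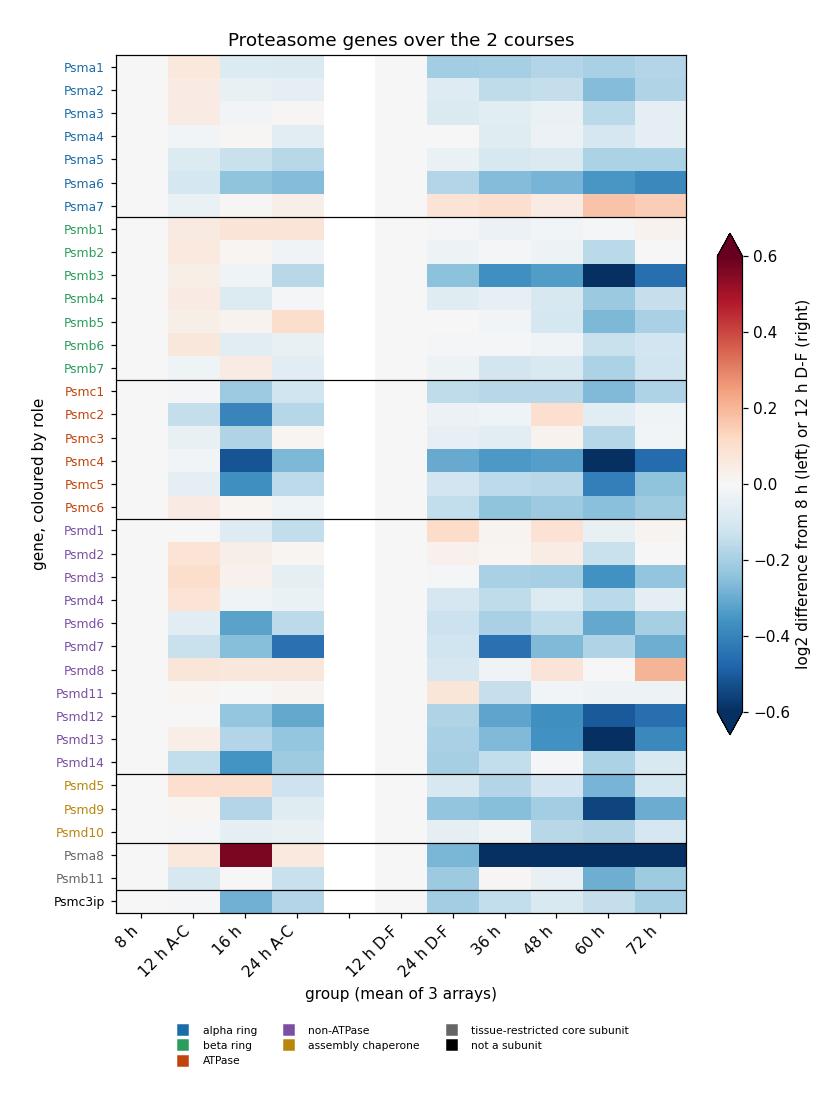
Group means (3 arrays each) of the 37 genes as log2 differences from 8 h (left block) or from 12 h D-F (right block), gene names coloured by role, colour scale from -0.6 to 0.6 with larger values at its ends. The blue column at 60 h, the pale beta ring against the blue ATPases at 16 h, and the fall of Psma8 from 36 h on stand out; Psma7 and Psmd8 are the genes called higher at 72 h, calls that end when arrays are centred on the median of the genes tested.

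Among the alpha ring genes, which form the gated ends of the core, Psma6 moved most. Its log2 intensity was 13.04, 13.01 and 13.06 at 8 h and 12.84, 12.70 and 12.79 on the 24 h arrays A to C, then 13.24, 13.17 and 13.23 on the 12 h arrays D to F and 12.78, 12.91 and 12.80 at 72 h. Every later array lay below every earlier one in both courses. The change was -0.26 (SE 0.05, adjusted p 6.5e-05) in the early course and -0.39 (SE 0.05, adjusted p 6.8e-08) in the late course, where the level at 72 h was 76.5% of that at 12 h D-F. Of the 7 alpha ring genes, 4 fell and 1 rose in the late course (34.5% and 26.2% of all genes). In the early course 2 fell (15.8% of all genes). The others that fell at 72 h were Psma5 (-0.19), Psma2 (-0.18) and Psma1 (-0.18), and the call for Psma1 is lost without array D of 12 h (-0.13, adjusted p 0.061). Psma5 also fell at 24 h A-C (-0.17, adjusted p 0.038). That call ends without array A or C of 8 h or without array A or B of 24 h (adjusted p 0.055 to 0.16). Its other bright probe set changed by -0.17 there (adjusted p 0.0094 over all probe sets). Psma3 and Psma4 differed by -0.06 each at 72 h and were not called.

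Psma7, an alpha ring gene like Psma6, went the other way. It gave 11.81, 11.74 and 11.68 on the 12 h arrays D to F and 11.87, 11.89 and 11.91 at 72 h, so that every 72 h array lay above every 12 h array. The rise was 0.15 (SE 0.05, adjusted p 0.022). It is not called without array F of 12 h (adjusted p 0.1) or array C of 72 h (adjusted p 0.062), and it turns to -0.03 when arrays are centred on the median of the genes tested. The other probe set of Psma7, nearly as bright, changed by 0.10 at 72 h without a call (adjusted p 0.076 over all probe sets).

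The beta ring holds the cutting sites, in Psmb5 (chymotrypsin-like), Psmb6 (caspase-like) and Psmb7 (trypsin-like). Psmb3, a subunit of the ring without a cutting site, fell most. It gave 12.80, 12.84 and 12.67 on the 12 h arrays D to F and 12.22, 12.37 and 12.36 at 72 h. The values do not overlap, and the change was -0.45 (SE 0.07, adjusted p 5.4e-06), to 73.2% of the earlier level. Its other probe set, nearly as bright, fell by only 0.26 on the log2 scale (adjusted p 0.0041 over all probe sets). In the early course Psmb3 changed by -0.16 and was not called (adjusted p 0.068). The genes of the cutting sites moved less. Psmb5 fell at 72 h by 0.20 on the log2 scale (adjusted p 0.0024), Psmb6 by 0.12 (adjusted p 0.036), and Psmb7 changed by -0.12 without a call (adjusted p 0.081). Leaving out array D or E of 12 h or any 72 h array ends the call for Psmb6 (adjusted p 0.061 to 0.11). In all, 4 of 7 beta ring genes fell in the late course (34.5% of all genes), Psmb4 (-0.14) being the fourth. In the early course 0 of 7 were called (15.8% of all genes were lower and 23.5% higher). Of the 7, 1 had an unadjusted limma p under 0.05 there.

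The 6 ATPases form the ring that unfolds the substrate. Psmc4 changed most, both among them and in the constitutive set at 72 h. Its intensity was 12.11, 12.15 and 12.11 at 8 h and 11.88, 11.81 and 11.87 on the 24 h arrays A to C, then 12.25, 12.28 and 12.17 on the 12 h arrays D to F and 11.71, 11.78 and 11.82 at 72 h. All later arrays were below all earlier ones in both courses. It fell by 0.27 (SE 0.07, adjusted p 0.0023) and by 0.46 (SE 0.07, adjusted p 1.9e-06) on the log2 scale, to 83% and 72.7% of the earlier level. Its other probe set changed by -0.31 without a call in the early course (adjusted p 0.061 over all probe sets) and fell by 0.72 in the late one. In the late course Psmc5 (-0.24), Psmc6 (-0.21) and Psmc1 (-0.19) fell as well, whereas Psmc2 and Psmc3 changed by -0.03 and -0.01 and were not called. In the early course Psmc2 fell (-0.17, adjusted p 0.029). That call is lost without array A or C of 8 h, or without any one 24 h array (adjusted p 0.054 to 0.1). The other bright probe set of Psmc2 changed by -0.17 there (adjusted p 0.032 over all probe sets).

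Of the 11 other cap genes, 5 fell and 1 rose in the late course (34.5% and 26.2% of all genes). In the early course 5 fell (15.8% of all genes). Psmd12 and Psmd13, which encode scaffold subunits of the lid, fell in both. Psmd12 gave 11.85, 11.86 and 11.87 at 8 h and 11.52, 11.53 and 11.61 on the 24 h arrays A to C, then 11.94, 11.92 and 11.82 on the 12 h arrays D to F and 11.40, 11.48 and 11.46 at 72 h. Neither course shows an overlap, and the changes were -0.31 (SE 0.05, adjusted p 6.6e-05) and -0.45 (SE 0.05, adjusted p 9.2e-08). Psmd13 gave 10.98, 10.93 and 10.83 at 8 h, 10.75, 10.60 and 10.69 on the 24 h arrays A to C, 11.08, 11.14 and 11.04 on the 12 h arrays D to F and 10.61, 10.71 and 10.78 at 72 h. Its groups do not overlap either. It fell by 0.23 (SE 0.08, adjusted p 0.02) and 0.39 (SE 0.08, adjusted p 0.00014) on the log2 scale, and the early call is lost without array A or B of 8 h or array B of 24 h (adjusted p 0.055 to 0.092).

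Psmd7, the partner of the deubiquitinase subunit Psmd14, had the largest fall of the early course. It gave 11.60, 11.55 and 11.71 at 8 h and 11.14, 11.20 and 11.18 on the 24 h arrays A to C. The groups are far apart, with a change of -0.45 (SE 0.10, adjusted p 0.00062), and its next brightest probe set fell by 0.27 on the log2 scale. In the late course it gave 11.59, 11.61 and 11.24 on the 12 h arrays D to F and 11.29, 11.24 and 11.03 at 72 h, which overlap. The change of -0.29 (adjusted p 0.011) loses its call without array D or E of 12 h or array C of 72 h (adjusted p 0.061 to 0.079). The next brightest probe set changed by -0.28 in the late course (adjusted p 0.018 over all probe sets). Psmd14 itself, which cuts ubiquitin off the substrate, fell in the early course (-0.21, adjusted p 0.0051) and changed by -0.09 in the late course (adjusted p 0.17). Psmd6 fell in both (-0.16 and -0.20), and Psmd3 fell in the late course (-0.24, adjusted p 0.00023).

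Psmd8, a lid subunit, was the other gene that rose. Its arrays gave 12.10, 12.13 and 12.02 on the 12 h arrays D to F and 12.25, 12.26 and 12.35 at 72 h, with no overlap. The rise was 0.20 (SE 0.05, adjusted p 0.0017), and it shrinks to 0.02 without a call (adjusted p 0.66) when arrays are centred on the median of the genes tested. The large scaffolds Psmd1 and Psmd2, the ubiquitin receptor Psmd4 and the lid subunit Psmd11 changed by between -0.06 and 0.02 at 72 h and were not called.

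Of the 3 cap chaperones, 1 fell in the late course, where 34.5% of all genes were called lower. Psmd9 gave 9.36, 9.40 and 9.29 on the 12 h arrays D to F and 9.08, 8.97 and 9.11 at 72 h, a fall of 0.30 on the log2 scale with no overlap (SE 0.07, adjusted p 0.00037). Psmd5 and Psmd10 changed by -0.11 and -0.10 and were not called. In the early course 0 of the 3 were called (15.8% of all genes were lower and 23.5% higher), and 1 had an unadjusted limma p under 0.05.

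**Figure D2:**
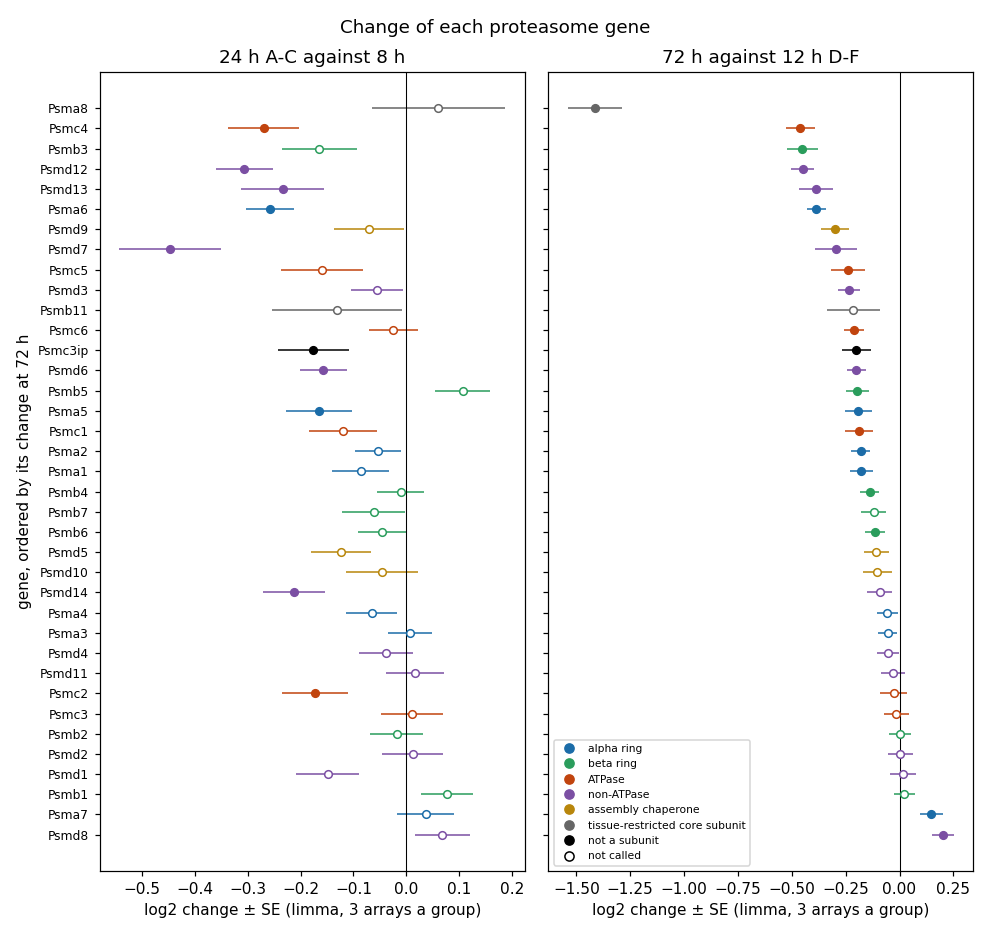
Log2 change ± SE of each of the 37 genes at 24 h A-C against 8 h (left) and at 72 h against 12 h D-F (right), filled where called in limma at an adjusted p under 0.05, coloured by role; the horizontal scales differ. Psma8 (-1.41) stands alone on the right, most other points lie between -0.46 and 0, and Psma7 and Psmd8 are the filled points above 0 (neither is called when arrays are centred on the median of the genes tested).

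The 3 genes of other kinds behaved differently from each other. Psma8 gave 8.71, 8.82 and 8.60 on the 12 h arrays D to F, 7.91, 8.35 and 7.93 at 36 h, 7.32, 7.85 and 7.48 at 48 h, 7.42, 7.18 and 7.09 at 60 h, and 7.11, 7.504 and 7.27 at 72 h. From 36 h on, no array reached the lowest 12 h array. The change at 72 h was -1.41 (SE 0.13, adjusted p 6.2e-10), to 37.5% of the level at 12 h D-F. In the early set it was high at 16 h, at 9.0003, 9.17 and 9.15 against 8.62, 8.58 and 8.44 at 8 h. That rise was 0.56 (SE 0.13, adjusted p 0.00074), and at 24 h A-C (8.69, 8.54 and 8.58) the difference from 8 h was 0.06 and not called. Psmb11 read between 4.58 and 5.29 on all arrays, near the arrays' lower quartiles of 4.73 to 4.85, and was called neither in the early nor in the late course. Psmc3ip fell in both (-0.18 and -0.20). Its early call is lost without any one 8 h array or without array A or B of 24 h (adjusted p 0.056 to 0.18). Its late call, where the arrays overlap, is lost without array E of 12 h (adjusted p 0.14). The other probe set of Psmc3ip, nearly as bright, changed by -0.31 and -0.32 (adjusted p 0.0013 and 0.00034 over all probe sets).

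**Figure D3:**
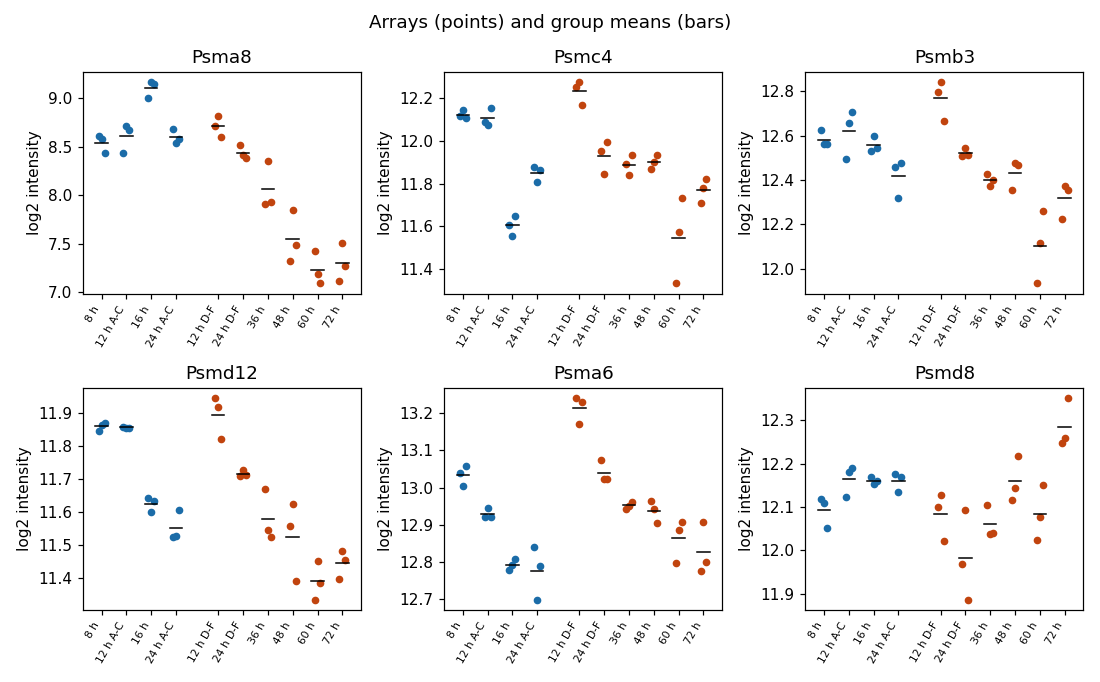
Log2 intensity of 6 genes on every array (points) with the group mean (bars), early array set in blue and late set in red-orange; each panel has its own vertical scale. Psma8, Psmc4, Psmb3, Psmd12 and Psma6 end the late set below all 12 h D-F arrays, Psmd8 ends above them, and Psmc4 has low points at 16 h and at 60 h.

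The time points between show that the fall was not even. In the late set, 10 of the 37 genes fell from 12 h to 24 h D-F (14.8% of all genes were called lower), 18 were lower than 12 h D-F at 36 h (21.4% of all genes), 15 at 48 h (27.2%) and 27 at 60 h (33.6%), before the 20 at 72 h. These comparisons share the 12 h D-F arrays. The lowest of the 6 group means was at 60 h for 25 of the 34 constitutive genes and at 72 h for 2, and the highest was at 12 h D-F for 25. Between neighbouring times, 14 genes fell from 48 h to 60 h (13.8% of all genes) and 5 rose from 60 h to 72 h (8.54% of all genes). These 5 were Psmb2, Psmb3, Psmc4, Psmd8 and Psmd9, and the arrays of Psmb3 and Psmc4 overlap between 60 h and 72 h. The calls between neighbouring times were not repeated with arrays left out. Psmc4 gave 11.33, 11.58 and 11.73 at 60 h, so the 60 h arrays themselves were spread, and its level there was 62.2% of that at 12 h D-F. Psmb3 gave 11.93, 12.12 and 12.26 and Psmd13 10.21, 10.55 and 10.63 at 60 h. Array A was the lowest of the 3 for all 3 genes, and for the mean of the constitutive set (12.02, against 12.14 and 12.16 on arrays B and C) and of the ATPases (11.95, against 12.12 and 12.25). Without it, 20 genes were called lower at 60 h in place of 27, and 60 h was lowest for 20 of the 34 in place of 25. The stem cell marker list was also lowest at 60 h (mean 10.76 to 10.94, against 11.24 to 11.51 at 72 h and 12.48 to 12.55 at 12 h D-F). The fibroblast list stood at 9.82 to 10.59 at 60 h and 10.02 to 11.003 at 72 h, against 7.94 to 8.84 at 12 h D-F, with 9 and 10 of its 10 markers higher. The extraembryonic endoderm list rose from 7.80 to 7.92 at 12 h D-F to 9.45 to 9.79 at 72 h, with 8 of 8 markers higher, though the means of its marker Afp stayed between 5.31 and 5.74 in every group, as did those of the fibroblast marker Lum between 5.02 and 5.93. The part of these lists in the fall was not tested.

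In the early set, 5 of the 6 ATPases dipped at 16 h. No gene of the 37 was called at 12 h A-C against 8 h in limma (19.5% of all genes were), although 4 had an unadjusted p under 0.05. At 16 h against 8 h, 12 fell and 1 rose, while 17.9% of all genes were called lower and 25.6% higher. The ATPases that fell were Psmc4 (-0.52, adjusted p 8.2e-07), Psmc2 (-0.39, adjusted p 1.1e-05), Psmc5 (-0.37), Psmc1 (-0.22) and Psmc3 (-0.18). Of the 7 beta ring genes 0 were called at 16 h against 8 h, and 0 had an unadjusted limma p under 0.05. Against 12 h A-C, 13 of the 37 genes fell at 16 h and 1 rose (1728 and 2254 of all 18193 genes). Among those 13 were 4 of 6 ATPases, 2 of 7 beta ring genes and 4 of 11 other cap genes. Psmc4 gave 11.61, 11.56 and 11.65 at 16 h, below its 8 h arrays and also below those of 24 h A-C. Psmc2 gave 12.11, 12.07 and 12.18 against 12.51, 12.48 and 12.56 at 8 h, with no overlap. From 16 h to 24 h A-C, Psmc2 (0.22), Psmc3 (0.19), Psmc4 (0.25) and Psmc5 (0.21) rose again, as did the lid gene Psmd6 (0.17), out of 5 that rose (17.4% of all genes were called higher). Psma8 (-0.50) and the chaperone Psmd5 (-0.23) fell between the same times (16.9% of all genes were called lower). The lid gene Psmd14 fell by 0.36 at 16 h (adjusted p 1.9e-05). A difference between the roles was not tested. The fibroblast list was higher at 16 h (mean 8.83 to 9.38) than at 8 h (8.17 to 8.52) or 24 h A-C (8.59 to 8.66), with 10 of 10 markers above 8 h, and its part in the dip was not tested.

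The courses share no arrays, so the changes of the 34 constitutive genes can be set side by side. Of the 34, 28 had the same sign in both, and Pearson's r across the genes was 0.67, a description over genes that share arrays and are not independent. Over all 18193 genes the same sign was seen for 70.8%, and r was 0.51. With Psma8, Psmb11 and Psmc3ip included, 30 of the 37 genes had the same sign, and r was 0.22, lower than over all genes. The same 8 genes were called lower in both: Psma5, Psma6, Psmc4, Psmd6, Psmd7, Psmd12, Psmd13 and Psmc3ip, which is 8 of the 10 of the early course and 8 of the 20 of the late course. They are 21.6% of the 37, and 11.1% of all genes were called lower in both. Psmb5 differed, at 0.11 in the early course without a call (adjusted p 0.11) and -0.20 in the late one. Over the 561 pairs of constitutive genes, the correlation of the 6 group means of the late set had a median of 0.65. It was 0.43 over the 4 groups of the early set, 0.39 over all 10 groups, and 0.30 for the deviations of the 30 arrays from their group means, where no group difference is left. Pairs of other genes were not examined, so whether these values exceed those of genes in general was not tested. In the late set Psmd6 (0.87), Psmc5 (0.86) and Psmd13 (0.86) had the highest median correlation with the other 33 genes and Psma7 (-0.81) the lowest. Where a gene had further probe sets (39 for 20 genes), 25 of these were called lower and 0 higher in the late course, and 10 lower and 0 higher in the early course, adjusted over all probe sets. Of all 34945 probe sets, 30.2% were lower and 23.3% higher in the late course and 13.9% and 17.6% in the early one. Among them, another probe set of Psmd4 fell by 0.34 on the log2 scale at 72 h, where the one kept changed by -0.06 without a call.

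**Figure D4:**
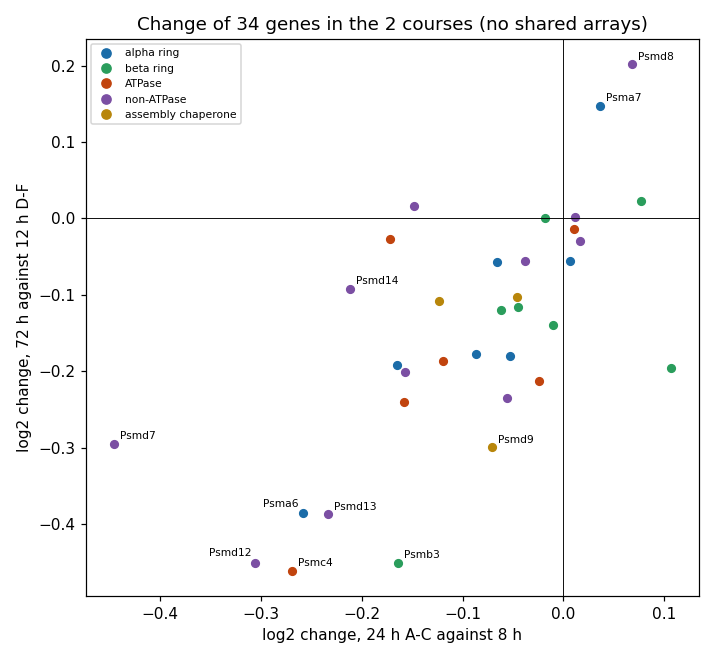
Log2 change of the 34 constitutive genes from 8 h to 24 h A-C (horizontal) against that from 12 h D-F to 72 h (vertical), coloured by role, with the farthest genes named. Most genes lie at the lower left, with Psmd12, Psmc4, Psma6, Psmd13 and Psmd7 farthest, and Psmd8 and Psma7 lie at the upper right, where centring the arrays on the median of the genes tested ends their calls at 72 h.

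The sequence just upstream of annotated starts was searched because proteasome genes are known to be transcribed together, and it is shown for some that fell in the late course. A link between the motifs and the fall was not tested. RefSeq (GRCm38.p6) gave windows of 250 bases before annotated transcript starts for 30 of the 37 genes. A gene can have several starts, and all were searched, for these and for all genes alike. The matches in Psmb6 (TGACNNNGC), in Psma6 and Psmd2 (CCGGAAG) and 1 of those in Psmc2 (CCGGAAG) lie before a start that is inside the gene's annotated span. Motifs were searched on both strands: TGACNNNGC, the core of the antioxidant response element; CCAAT, the box of the factor NF-Y; and CCGGAAG, a site of ETS factors. TGACNNNGC occurred in 5 of the 30 (16.7%), against 11.5% of 27025 genes, and the genes that hold it, Psmb5, Psmb6, Psmc6, Psmd9 and Psmd12, were all among the 17 of the 30 that fell at 72 h. CCGGAAG occurred in 10 of the 30 (33.3%), against 7.83% of all genes, and 6 of these fell and 0 rose. CCAAT occurred in 13 (43.3%), against 37.5% of all genes, and 6 of these fell and 1 rose. A match describes the letters only. The windows around TGACNNNGC follow, cut at the start in Psmb6, 5′ to 3′ on the strand of the gene, with the match in capitals. Psmb5 lies on the minus strand (chr14:54618024-54618052), Psmb6 (chr11:70525338-70525356), Psmc6 (chr14:45329587-45329615) and Psmd9 (chr5:123228149-123228177) on the plus strand.
Psmb5: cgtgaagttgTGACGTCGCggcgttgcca
Psmb6: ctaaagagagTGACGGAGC
Psmc6: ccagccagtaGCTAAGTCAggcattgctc
Psmd9: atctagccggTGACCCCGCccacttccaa

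In Psmc6 the match is on the opposite strand, so its letters appear reversed and complemented. Psmd12, which fell in both courses, holds both TGACNNNGC and CCGGAAG on the opposite strand. Its 250 upstream bases (chr11:107479278-107479527, plus strand) end at the base before the gene, with the former match at the far end and the latter next to the start, both in capitals. Psmc1 (chr12:100110164-100110190, plus strand) and Psmd6 (chr14:14120974-14121000, minus strand), genes that also fell at 72 h, show the ETS letters close to the start.
Psmd12: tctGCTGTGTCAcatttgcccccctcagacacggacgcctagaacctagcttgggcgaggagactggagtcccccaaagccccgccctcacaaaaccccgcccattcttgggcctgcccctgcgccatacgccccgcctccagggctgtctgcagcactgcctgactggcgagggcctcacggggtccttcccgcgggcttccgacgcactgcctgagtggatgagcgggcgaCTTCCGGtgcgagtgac
Psmc1: ggtggatgcaCTTCCGGcggtggcgat
Psmd6: agagacgcgaCCGGAAGtcagactggc

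The regulators examined were Nfe2l1, its relatives and proteins that act with them, and they moved in their own ways. Factors of the NF-Y and ETS kinds were not examined. Nfe2l1 gave 11.11, 11.14 and 11.02 at 8 h and 11.53, 11.27 and 11.36 on the 24 h arrays A to C, a rise of 0.30 with no overlap (SE 0.07, adjusted p 0.001), and it changed by 0.09 at 72 h against 12 h D-F (adjusted p 0.28). Ngly1, the glycanase that acts on the Nfe2l1 protein, rose by 0.48 in the early course (adjusted p 2e-06). Nfe2l2, the related factor of the oxidative stress response, was called in neither course, and Keap1, its inhibitor, rose in the late one (0.35, adjusted p 4.5e-05). Nfe2l3, another related factor, was called lower in the late course, but its 72 h arrays (4.71, 4.67 and 4.63) lie below the arrays' lower quartiles, so no size is given. Of the 8 measured regulators, 2 rose and 3 fell in the late course (26.2% and 34.5% of all genes). In the early course 2 rose and 1 fell (23.5% and 15.8% of all genes). Vcp, the ATPase that extracts ubiquitinated proteins, rose by 0.26 in the late course, and its partners Nploc4 and Ufd1 fell by 0.23 and 0.21 on the log2 scale.

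Most chaperones that assemble the core particle fell in the late course. Of the 5 measured, 4 fell there (34.5% of all genes were called lower) and 2 in the early course (15.8%). Psmg1 gave 12.16, 12.18 and 12.08 on the 12 h arrays D to F and 11.38, 11.42 and 11.42 at 72 h. The groups are far apart, and the change was -0.74 (SE 0.04, adjusted p 6.2e-13). Psmg2 (-0.69), Psmg3 (-0.51) and Psmg4 (-0.51), which with Psmg1 build the alpha ring, fell too. Pomp, which guides the beta ring, changed by -0.11 (adjusted p 0.1) and had fallen in the early course (-0.19, adjusted p 0.0079).

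Enzymes and small subunits that bind the cap went both ways. In the late course 2 of 7 rose and 3 fell (26.2% and 34.5% of all genes). In the early course 1 rose and 2 fell (23.5% and 15.8% of all genes). The deubiquitinase Uchl5 gave 12.43, 12.39 and 12.34 on the 12 h arrays D to F and 11.69, 11.60 and 11.58 at 72 h, with a change of -0.76 (SE 0.07, adjusted p 2.8e-10), and it fell in the early course too (-0.41). Usp14, another deubiquitinase, fell in both (-0.34 and -0.21), and the ubiquitin ligase Ube3c fell in the late one (-0.72). Zfand5, which activates the proteasome, gave 11.13, 11.09 and 11.10 on the 12 h arrays D to F and 11.89, 11.81 and 11.82 at 72 h. It rose by 0.74 (SE 0.05, adjusted p 2.1e-11), after 0.34 in the early course. Sem1, the small lid subunit, gave 12.43, 12.60 and 12.48 on the 12 h arrays D to F and 12.89, 12.90 and 12.90 at 72 h, a rise of 0.39 with no overlap (adjusted p 3.7e-07).

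**Figure D5:**
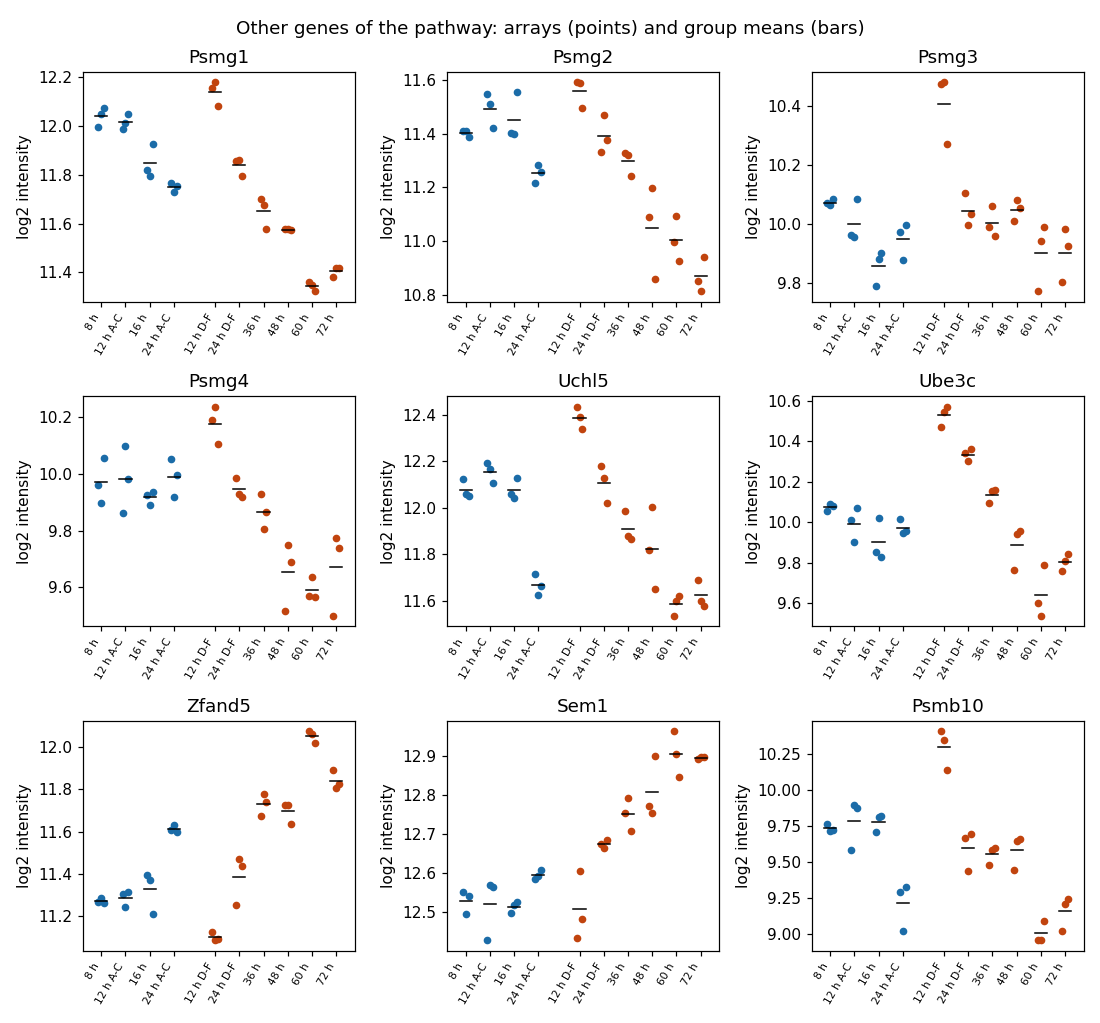
Log2 intensity of 9 other genes of the pathway on every array (points) with the group mean (bars), early array set in blue and late set in red-orange; each panel has its own vertical scale. The chaperones Psmg1 to Psmg4, the bound enzymes Uchl5 and Ube3c, and the inducible Psmb10 end the late set below all 12 h D-F arrays, and Zfand5 and Sem1 end above them.

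The inducible subunits replace those of the cutting sites in immune cells. Psmb10 gave 10.40, 10.34 and 10.13 on the 12 h arrays D to F and 9.02, 9.21 and 9.24 at 72 h, a change of -1.13 (SE 0.09, adjusted p 1.9e-10), and it fell by 0.52 on the log2 scale in the early course (adjusted p 0.0001). Psmb9 fell in the late course (-0.57) and rose in the early one (0.31, adjusted p 0.036), and Psmb8 was called in neither. Psmb8 and Psmb9 stood highest at 16 h, at 7.87, 7.85 and 7.79 and at 8.01, 8.12 and 7.84, where Psma8 was also highest. Of the 5 measured activators, caps and the inhibitor, 1 rose and 1 fell in the late course: Psme1, a cap subunit known from immune cells, rose by 0.35, and Psme3, the nuclear cap, fell by 0.67 on the log2 scale (adjusted p 1.8e-06). In the early course 2 rose, Psme1 (0.25) and Ecpas (0.45), and Psme3 fell (-0.33). Beside these counts and those of the shuttles below, 26.2% of all genes rose and 34.5% fell in the late course. In the early course 23.5% of all genes rose and 15.8% fell. Of the 4 measured ubiquitin shuttles, Ubqln2 rose (0.55), and Ubqln4 (-0.53) and Ubqln1 (-0.13) fell in the late course, while Ubqln2 (0.33) and Ubqln1 (0.16) rose in the early one.

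At the times measured in both array sets, some of the genes were called different between the sets. In either direction these were 11 of the 37 at 12 h and 14 at 24 h. Over all 18193 genes they were 7087 and 6141. At 12 h, 9 of the 37 were higher on arrays D to F than on A to C (17.2% of all genes were) and 2 lower (21.7%), and at 24 h 11 were higher (13.3%) and 3 lower (20.4%). Psmc2 gave 12.37, 12.37 and 12.39 on the 12 h arrays A to C and 12.75, 12.64 and 12.73 on D to F, a difference of 0.33 (SE 0.06, adjusted p 0.00012), and its other bright probe set a difference of 0.16 (adjusted p 0.042 over all probe sets). Psmd3 gave 11.71, 11.71 and 11.75 against 11.99, 12.13 and 12.02, a difference of 0.32 (SE 0.05, adjusted p 1.3e-05). Neither overlaps. Psma6 gave 12.92, 12.95 and 12.92 against the 13.24, 13.17 and 13.23 given above, a difference of 0.28 (adjusted p 1.9e-05). Psma5 gave 12.62, 12.46 and 12.45 on arrays A to C and 12.82, 12.72 and 12.80 on D to F, 0.27 higher (adjusted p 0.0011). Its other bright probe set differed by 0.05 without a call (adjusted p 0.52 over all probe sets). The chaperone gene Psmd9 gave 9.09, 9.03 and 9.27 against 9.36, 9.40 and 9.29, 0.22 higher (adjusted p 0.0092). None of these 3 overlaps, and the call for Psmd9 is lost without array B of 12 h (adjusted p 0.072). At 12 h the endoderm list stood at 7.80 to 7.92 on D to F and 7.30 to 7.37 on A to C (7 of 8 markers higher) and the neural list at 7.74 to 7.79 and 7.02 to 7.24 (5 of 6 higher). The stem cell list (12.48 to 12.55 and 12.45 to 12.58, 6 of 8 higher) and the fibroblast list (7.94 to 8.84 and 8.64 to 8.77, 7 of 10 lower) overlapped. The part of these lists in the differences was not tested.

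The chaperone Psmd10 (-0.22, adjusted p 0.011) and Psmc3ip (-0.21, adjusted p 0.016) were lower on arrays D to F at 12 h. Psmd10 gave 9.22, 9.27 and 9.32 on arrays A to C and 8.999, 9.12 and 9.01 on D to F, and Psmc3ip gave 9.54, 9.51 and 9.61 against 9.33, 9.53 and 9.19, which overlap. Psmd10 is not called without array C or D of 12 h (adjusted p 0.05 to 0.055), nor Psmc3ip without array C or F (adjusted p 0.075 to 0.16). Psma5, Psma6, Psma7, Psmb6, Psmb7, Psmc2, Psmd2 and Psmd3 were higher and Psmc3ip and Psmd10 lower on D to F at both times, in comparisons that share no arrays. These are 21.6% and 5.41% of the 37, and 7.25% of all genes were higher and 11.1% lower at both times. The other probe set of Psma7 differed by 0.03 at 12 h and -0.02 at 24 h without a call (adjusted p 0.66 and 0.77 over all probe sets). That of Psmc3ip, nearly as bright, differed by -0.05 and -0.03, also without a call (adjusted p 0.63 and 0.78). At 24 h the other bright probe sets of Psma5 (0.08, adjusted p 0.2) and Psmc2 (0.13, adjusted p 0.1) were not called. The other bright probe set of Psma6 was called higher at both times (0.22 and 0.26). Psmd2 at 12 h (0.15, adjusted p 0.049) loses its call without any one of the 6 arrays (adjusted p 0.052 to 0.18), and Psmb6 (0.14) without array A or E (adjusted p 0.079 to 0.11). Whether the change from 12 h to 24 h itself differed between the letters was tested by an interaction term in limma, which called 1 of the 37 genes, Psmd1 (0.26, adjusted p 0.031), and 19.1% of all genes. The letters and the array sets cannot be told apart.

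The comparison of 72 h with 8 h crosses the array sets. In it 5 of the 37 genes were higher (26.7% of all genes) and 15 lower (39.9%). Psmc2 (0.16), Psmd2 (0.23) and Psmd3 (0.19), which were higher there, did not rise from 12 h D-F to 72 h, and time and array set cannot be told apart in this comparison.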

How the data were processed

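RNA of 30 samples was measured on Affymetrix arrays, 1 array each, from 200 ng of labelled RNA per the labels' protocols. The deposited values are log2 intensities that the authors normalised between arrays. The method is not given in the sources used here, and limma 3.8.3 is named in the submitters' processing notes. Arrays have no depth, so their number (3 a group) limits the precision. Of 45101 probe sets, 64 controls, 9160 that name no gene and 932 that name more than 1 were not used, and no filter or further normalisation was applied. No pair of arrays within a group was identical (0 of 30 pairs).

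A linear model on the 10 groups was fitted with limma 3.58.1 in R 4.3.3 (empirical Bayes variance, two-sided, Benjamini-Hochberg over 18193 genes) and tested on simulated data. The genes, lists and comparisons were chosen with earlier results of these data known. Genes described array by array were the 5 largest called rises and falls in each course and between letters at 12 h, and any gene could be named. The spike-in pair that defines the array sets was itself picked in an earlier look at these data, from several pairs tried. Symbols, positions and upstream bases came from RefSeq. Alternatives covered scaling, probe set choice, dim genes, array weights, groups fitted, a letter block and each array left out.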

Additional observations from a re-analysis of the deposited data

Results flagged for a closer look

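Psmd1, a large scaffold subunit of the cap, changed differently between 12 h and 24 h on the arrays lettered D to F than on those lettered A to C. It gave 12.39, 12.36 and 12.36 on the 12 h arrays A to C and 12.24, 12.20 and 12.22 on the 24 h arrays A to C, and 12.46, 12.61 and 12.35 on the 12 h arrays D to F and 12.57, 12.61 and 12.59 on the 24 h arrays D to F. The change on D to F minus that on A to C was 0.26 (SE 0.08, adjusted p 0.031 in limma, interaction term). It was the only 1 of the 37 genes called in that test, where 19.1% of all genes were called. The letters and the array sets cannot be told apart. Groups of 3 arrays are too small for a test of single arrays that stand apart.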

How the results depend on the processing

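The count of 10 genes called in the early course became 6 without probe sets of the types that can match several transcripts (32 genes left), 6 with arrays grouped by time alone, 16 with array weights and 33 with arrays centred on the median of the genes tested, and it ranged from 6 (without array B of 24 h) to 9 when 1 array was left out. The median change of -0.07 became -0.12 with each gene's probe sets averaged, -0.039 with arrays grouped by time alone and -0.25 with that centring. In the late course the count of 22 became 35 and the median of -0.18 became -0.35 with that centring, which also turned Psma7 to -0.029. With 1 array left out the count was 19 to 21. At 12 h, D-F against A-C, the count of 11 became 17 with that centring and 7 with only the groups compared, and it was 8 to 12 with 1 array left out. At 60 h against 12 h D-F, the 27 genes called lower were 20 to 28 with 1 of the 60 h arrays left out, a setting added after seeing the data. Called under every setting tried were 5 of the 10 genes of the early course, 12 of the 22 of the late course and 2 of the 11 at 12 h. With the letter as a replicate block the counts were 11, 22 and 11. The deviations of same-lettered arrays correlated at between -0.04 and 0.14, for 8 h with 24 h A-C and 12 h D-F with 24 h D-F. Other groups and unlike letters were not examined, so whether the letters mark a pairing is not settled. The groups 72 h and 12 h D-F share no letter. The count of 20 at 72 h against 8 h was 14 with arrays grouped by time, with or without the array set as a block. With 3 arrays a group, the smallest change called in either course was -0.12 (Psmb6, late).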
